A study of Mus musculus with 6 samples.

Results

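The genes of glucose uptake, glycolysis, pyruvate oxidation and the pentose phosphate pathway were followed through 6 mouse tumours. They were chosen by symbol: 39 symbols were carried by 40 of the 54532 gene rows of the count table, because Aldoa is the symbol of 2 gene IDs. Of the 40 rows, 39 passed the filter on low counts and were tested; the row that did not is Pdk4. The tumours grew under the skin of Kunming mice from G422, a mouse glioblastoma line infected with lentivirus to make stable derivatives. Cells of 3 tumours carried the vector (shVec) and cells of the other 3 carried shNgb, which the series title describes as a knockdown of Ngb, the gene of neuroglobin. The design text instead names Ngb itself as what was introduced, and the sample labels were followed here. The mice had no other treatment according to the labels. The sources used here do not give the number of clones behind each line, the age of the mice or whether each tumour came from its own mouse. The p-values therefore cover only the spread among the 6 tumours, part of which may be technical.

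Glucose enters cells through transporters of the Slc2a family and is phosphorylated by hexokinase, which traps it. Glycolysis then splits the sugar and oxidises it to pyruvate, which lactate dehydrogenase reduces to lactate or pyruvate dehydrogenase oxidises within the mitochondria. The pentose phosphate pathway leaves glycolysis at glucose 6-phosphate and makes NADPH and ribose. Tumours often run glycolysis at a high rate with oxygen present, and many of its genes are known targets of the transcription factors HIF-1, which is stabilised at low oxygen, and Myc.

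The libraries held 19630319 to 25620667 reads, and a change of level is given as the log2 fold change of shNgb against shVec from edgeR, with its standard error (SE). Levels of 1 gene across tumours are given as CPM (counts per unit of library size, scaled to a common total). Reads of Ngb numbered 28, 23 and 13 in shVec and 18, 19 and 11 in shNgb. Its ranges of 0.66 to 1.28 and 0.42 to 0.87 CPM overlapped (log2 fold change -0.59, SE 0.42, n = 3 and 3). Of the 8 glial and glioma markers, Nes, Sox2, Vim and Cd44 were tested, while Olig1 and Olig2 had 0 reads, Gfap 15 and S100b 22 reads in the 6 libraries together. In bulk tumour RNA, fewer cells that express a gene and less RNA per cell cannot be told apart.

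The glycolytic genes were among the most abundant transcripts of these tumours. On the scale of FPKM, which is scaled by gene length so that genes can be compared, Pgk1 stood at 629 ± 24.8 in shVec and 523 ± 66.3 in shNgb (mean ± SD, n = 3 each, as for all later means) and Pkm at 610 ± 12.2 and 546 ± 57.4 FPKM. The order of Pgk1 and Pkm differed between tumours, with Pkm above Pgk1 in shVec 1 and in the 3 shNgb tumours. Ldha followed at 473 ± 11.0 and 403 ± 40.0 FPKM. Pgk1 ranked between 35 and 61 among all genes of a library, and Ldha between 63 and 95. Eno1 (349 ± 4.72 and 300.2 ± 25.9 FPKM), Pgam1 (345 ± 21.8 and 310.05 ± 57.1 FPKM), Aldoa (259 ± 6.26 and 218 ± 23.9 FPKM) and Tpi1 (246 ± 15.5 and 219 ± 23.0 FPKM) came next. All 7 belong to the lower glycolytic steps, from the cleavage of fructose 1,6-bisphosphate to lactate. The entry steps stood far below, with the transporter Slc2a1 at 85.1 ± 11.0 and 58.2 ± 20.9 FPKM and the hexokinase Hk2 at 18.6 and 13.9 FPKM. Among the pentose phosphate genes Tkt stood highest, at 37.1 and 35.6 FPKM.

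**Figure D1:**
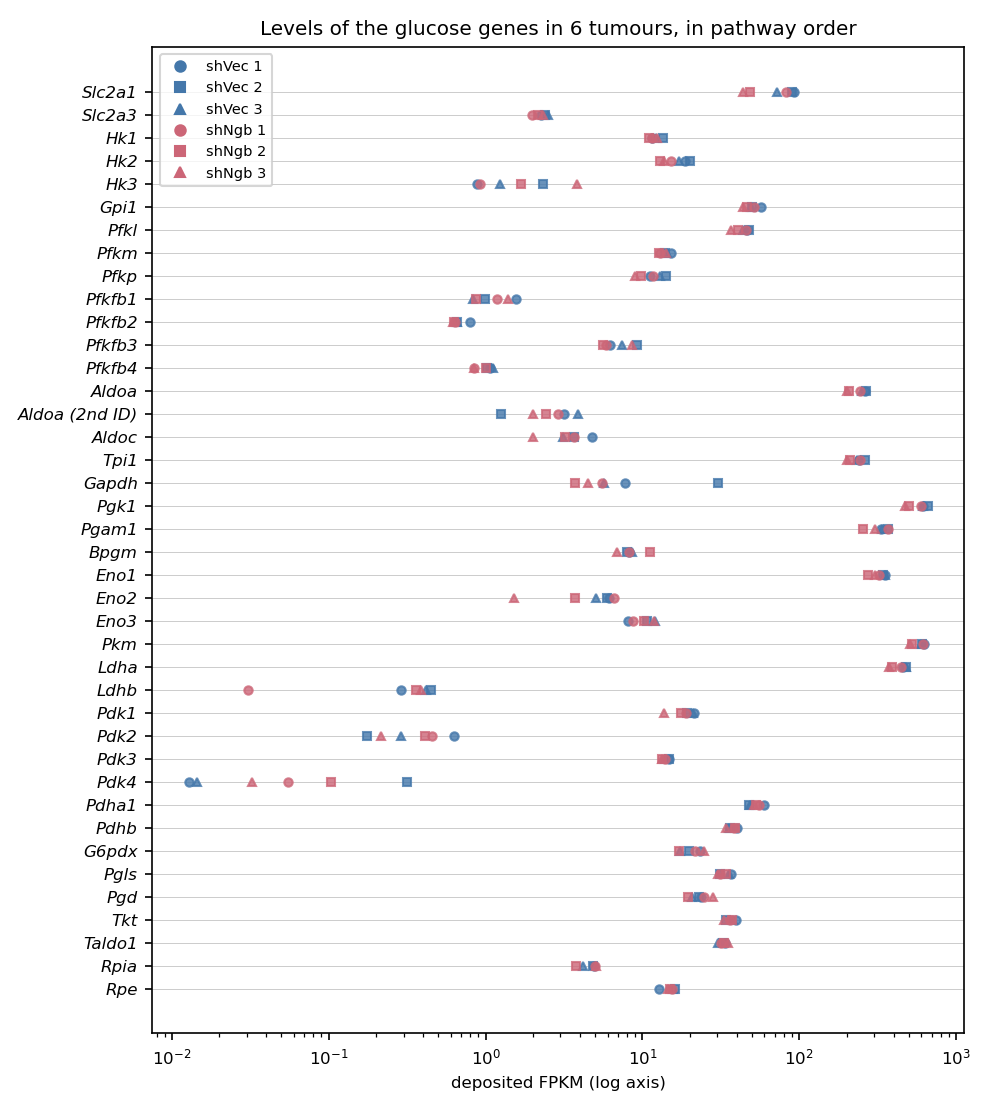
Deposited FPKM (log axis) of the glucose genes in pathway order, with 1 point for each tumour of the shVec and shNgb groups. Aldoa, Tpi1, Pgk1, Pgam1, Eno1, Pkm and Ldha sit highest. The other rows of these steps (the other Aldoa ID, Aldoc, Gapdh, Bpgm, Eno2, Eno3 and Ldhb) sit far to the left of them.

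Some steps were carried almost wholly by 1 gene and others were shared, measured as shares of the summed FPKM of the step. Slc2a1 held 94.97% to 97.67% of the uptake transporters measured here, Aldoa 97.0% to 98.2% of aldolase, Eno1 95.1% to 96.1% of enolase and Ldha 99.90% to 99.99% of lactate dehydrogenase. Ldhb, the heart-type subunit, had 10, 14 and 13 reads in shVec and 1, 14 and 16 in shNgb. Phosphofructokinase was shared, with Pfkl at 61.2% to 64.9%, Pfkm at 18.4% to 23.8% and Pfkp at 15.0% to 18.6%. Hexokinase was shared between Hk2, the inducible form, and Hk1, the form found in most tissues. The share of Hk2 was 60.0%, 56.1% and 55.9% in shVec and 55.0%, 50.4% and 45.8% in shNgb, so that the groups did not overlap. Hk1 held 37.1% to 40.1% in shVec and 41.3% to 42.99% in shNgb, and Hk3 2.87% to 12.8%.

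No glucose gene passed an adjusted p of 0.05 in edgeR (0 of 39; 0% of the 15203 genes tested were called), and the lowest adjusted p among them was 0.9997. At an unadjusted p under 0.05 in edgeR, 8 of the 39 rows stood lower in shNgb and 0 higher, beside 1.22% and 1.35% of all genes tested (2.58% in either direction). The 8 were Hk2, Pfkp, Aldoa, Gapdh, Pgk1, Eno1, Ldha and Pdk1. With limma-voom, 0 glucose genes were called and 8 lay under the unadjusted threshold (0% and 2.82% of all genes in either direction), and with DESeq2 0 and 9 (0.0302% and 2.69%). The log2 fold change was negative in 30 rows and positive in 9, beside 49.1% negative among all genes, and its median was -0.15 over the glucose genes and 0.00 over all genes. In 10 rows the 3 shNgb tumours lay below the 3 shVec tumours in CPM and in 0 rows above them, beside 3.43% and 3.67% of all genes.

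**Figure D2:**
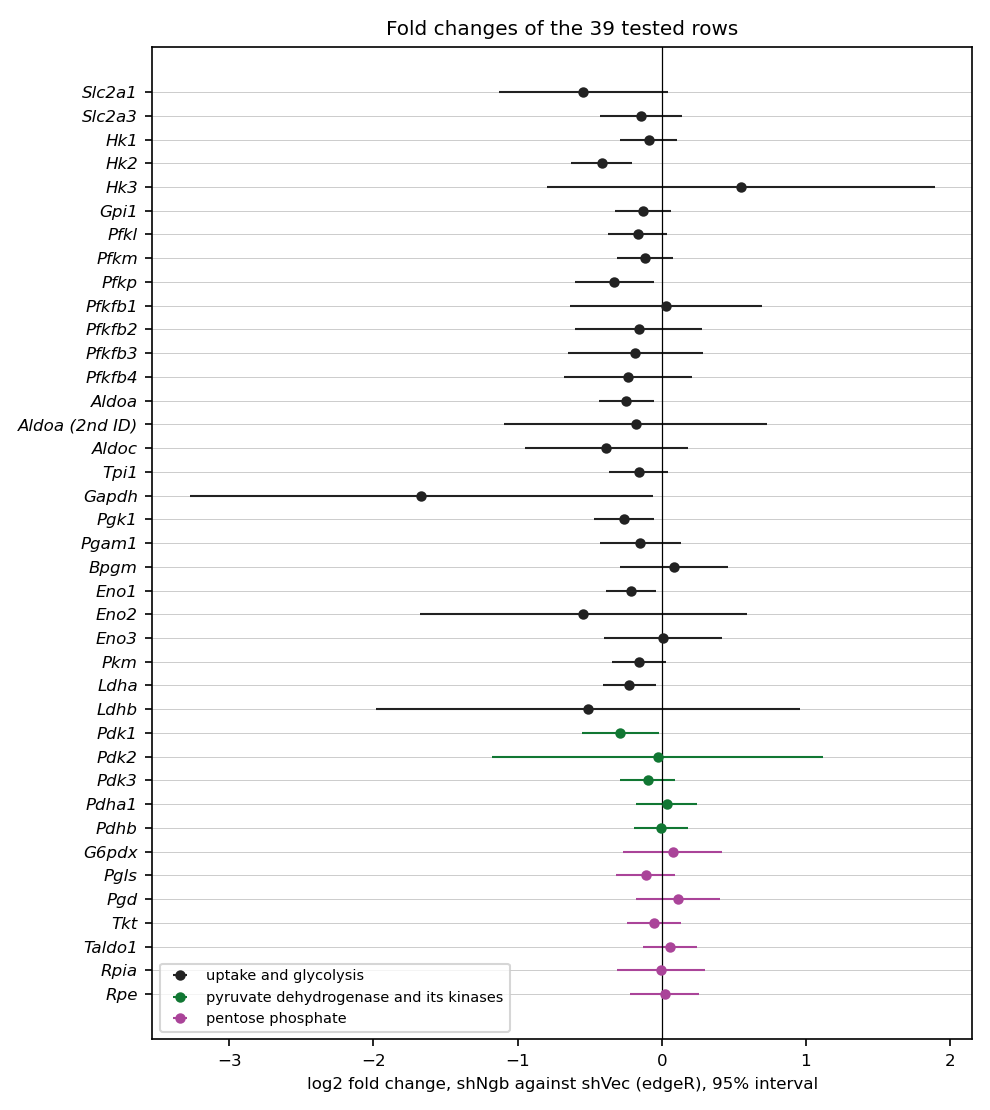
Log2 fold change of shNgb against shVec from edgeR for the 39 tested rows in pathway order, with 95% confidence intervals. Of the glycolytic rows 23 of 27 lie left of 0, and the pentose phosphate rows lie around 0.

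These counts rest on few tumours. In edgeR 3 glucose genes lay at an unadjusted p under 0.05 without shNgb 2 (3.77% of all genes in that fit) and 3 without shNgb 3 (2.07%). There were 4 without shVec 2 (4.77%), 4 without shVec 3 (1.37%) and 6 without shVec 1 (2.99%). Only 2 of the 8 found with all 6 tumours remained without shNgb 2, where Pgd entered, and 2 without shNgb 3, where Pfkfb3 entered. Pgd was higher in shNgb, at 160.66 and 183.83 CPM in shNgb 1 and 3 against 133.94 to 153.34 CPM in shVec. Without shNgb 1 the glucose genes under the threshold numbered 13, with 7 of them among the 8. The share of all genes was then also higher, at 4.94%. Hk2 lay under the threshold in each of these 6 fits. Rows without overlap numbered 18 without shNgb 1 and 13 to 15 without any other tumour. They were not all lower in shNgb: 2 of 13 lay higher without shNgb 2 and 1 of 15 without shVec 1. Fewer tumours separate more easily. The share of all genes without overlap was then 18.1% and 12.2% to 19.5%, against 7.10% with all 6 tumours. The tumour shNgb 1 was the highest of its group in 22 of the 39 rows, beside 29.5% of all genes, and was below all 3 shVec tumours in 15 rows, against 25 rows for shNgb 2 and 23 for shNgb 3. The median of log2 CPM centred on the 6 tumours was 0.11, 0.08 and 0.04 in shVec 1 to 3, and 0.04, -0.09 and -0.13 in shNgb 1 to 3. On this measure shNgb 1 lay at the level of shVec 3. Reads of the glucose genes made up 1.27%, 1.30% and 1.27% of the shVec libraries and 1.24%, 1.10% and 1.09% of the shNgb libraries.

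**Figure D3:**
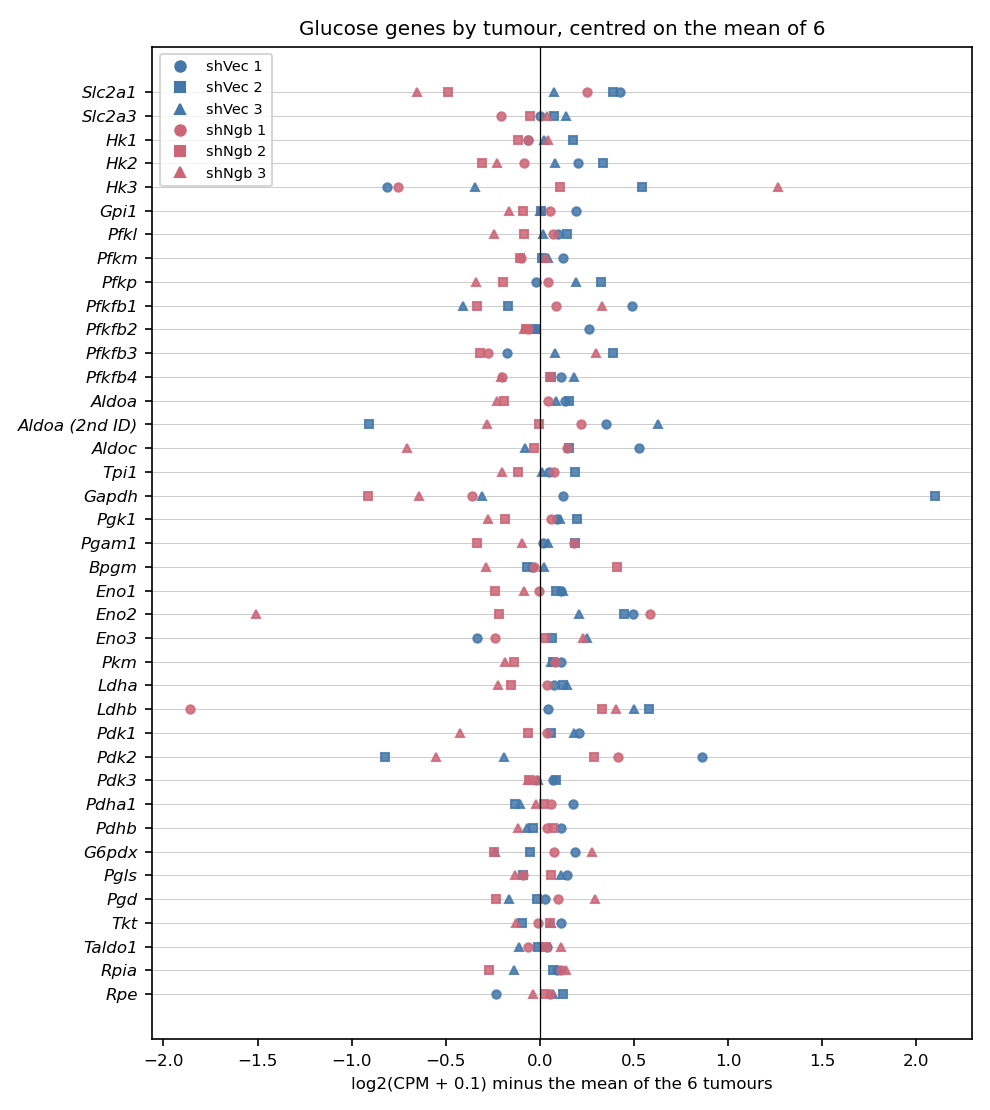
Log2 of CPM plus 0.1 for each tested glucose gene, minus its mean over the 6 tumours, with 1 point per tumour. Along the glycolytic rows shNgb 2 and shNgb 3 lie mostly to the left, while shNgb 1 lies near the shVec tumours.

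At the entry of glucose, 2 tumours stood apart. Slc2a1, which encodes the transporter GLUT1 (GRCm38, chr4:119108711-119137983, plus strand), was measured at 326.00, 317.56 and 255.66 CPM in shVec and at 289.02, 172.95 and 154.63 CPM in shNgb. The tumours shNgb 2 and shNgb 3 lay below the shVec range and shNgb 1 lay inside it. In edgeR the log2 fold change was -0.55 (SE 0.24, 95% interval -1.13 to 0.04, unadjusted p = 0.0632). Slc2a1 lay under 0.05 with limma-voom (unadjusted p = 0.0221) and with DESeq2 (unadjusted p = 0.00557), and without shNgb 1 its log2 fold change in edgeR was -0.87. Slc2a3, the high-affinity transporter GLUT3, averaged 17.4 ± 0.84 CPM in shVec and 15.7 ± 1.34 CPM in shNgb, with a log2 fold change of -0.14 (SE 0.12).

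Hk2, the inducible hexokinase that binds mitochondria (chr6:82725025-82774454, minus strand), had the smallest p of the glucose genes. It was measured at 111.11, 121.49 and 102.07 CPM in shVec and 90.84, 77.92 and 82.20 CPM in shNgb. The groups did not overlap, and shNgb 1 was again the nearest to shVec. The log2 fold change was -0.42 (SE 0.09, 95% interval -0.63 to -0.20, unadjusted p = 0.00167 in edgeR). Hk1 averaged 106 ± 9.04 and 99.8 ± 5.58 CPM with a log2 fold change of -0.09 (SE 0.09), and its groups overlapped. Hk3, a form found mainly in blood cells, ranged from 3.28 to 8.57 CPM in shVec and from 3.42 to 14.18 CPM in shNgb. The summed CPM of 10 macrophage markers ranged from 116 to 258 in shVec and from 151 to 366 in shNgb; its part in the Hk3 values was not tested.

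HIF-1, by background knowledge a regulator of the 3 genes shown here, binds the letters ACGTG or GCGTG. The promoters of these 3, out of the 8 genes at an unadjusted p under 0.05, are given as examples. They are the 250 bases before the start of each gene in RefSeq on GRCm38.p6, written 5′ to 3′ on the strand of the gene, with the letters on either strand in capitals. Hk2 lies at chr6:82774455-82774704 (minus strand), Pgk1 at chrX:106186850-106187099 (plus strand) and Pdk1 at chr2:71872974-71873223 (plus strand).
Hk2: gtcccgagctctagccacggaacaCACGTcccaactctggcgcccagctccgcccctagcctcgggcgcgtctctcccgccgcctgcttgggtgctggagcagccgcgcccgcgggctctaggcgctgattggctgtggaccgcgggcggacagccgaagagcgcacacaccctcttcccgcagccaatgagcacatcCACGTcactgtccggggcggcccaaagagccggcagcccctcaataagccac
Pgk1: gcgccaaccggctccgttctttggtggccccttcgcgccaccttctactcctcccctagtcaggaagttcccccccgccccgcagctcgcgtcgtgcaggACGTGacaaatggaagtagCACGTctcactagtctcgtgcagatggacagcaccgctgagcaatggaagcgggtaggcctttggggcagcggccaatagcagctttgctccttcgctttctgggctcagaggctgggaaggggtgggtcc
Pdk1: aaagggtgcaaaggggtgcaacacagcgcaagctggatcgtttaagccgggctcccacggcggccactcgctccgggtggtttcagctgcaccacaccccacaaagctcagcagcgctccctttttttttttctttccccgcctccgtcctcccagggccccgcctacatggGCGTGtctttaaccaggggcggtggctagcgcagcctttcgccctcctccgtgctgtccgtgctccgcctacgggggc
Hk2 and Pgk1 hold 2 matches each and Pdk1 holds 1. The E-box CACGTG contains ACGTG on both strands and was not counted apart. Of the 38 symbols found in the RefSeq table (Slc2a3 was not), 29 had a match, or 76.3%, beside 10431 of 27025 promoters of the same length, or 38.6%. The share was 7 of 8 among the genes at an unadjusted p under 0.05, where Aldoa held 0 matches. It was 22 of 30 among the other glucose genes. By group it was 17 of 25 (68.0%) in uptake and glycolysis, the lowest share of the groups. It was 6 of 6 for pyruvate dehydrogenase and its kinases and 6 of 7 in the pentose phosphate group. Both motifs contain the letters CG, and the CG content of the promoters was not compared. A match describes letters in this window and no binding was measured.

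At the next steps, the isomerase Gpi1 was measured at 366.82, 321.70 and 320.98 CPM in shVec and 333.67, 301.84 and 286.57 CPM in shNgb. Its log2 fold change was -0.13 (SE 0.09), and shNgb 1 lay inside the shVec range. Pfkl, the main phosphofructokinase, catalyses the committed step and stood at 311.19, 321.44 and 293.80 CPM in shVec and 305.37, 274.03 and 245.72 CPM in shNgb. Here too shNgb 2 and shNgb 3 lay below shVec while shNgb 1 did not (log2 fold change -0.17, SE 0.09). Pfkp, the platelet form, was measured at 150.38, 191.08 and 173.96 CPM in shVec and 157.00, 133.09 and 120.52 CPM in shNgb, with a log2 fold change of -0.33 (SE 0.12, unadjusted p = 0.0235 in edgeR). Its groups overlapped because shNgb 1 exceeded shVec 1. Pfkm averaged 48.7 ± 1.97 and 44.9 ± 2.48 CPM. Because strand is not recorded by the kit, reads of a member and of an overlapping gene on the opposite strand cannot be told apart where they overlap. This touches Pfkp with Pitrm1, Pfkm with Senp1, Pfkfb1 with Apex2, Pfkfb2 with Yod1, G6pdx with Ikbkg, Rpe with Kansl1l, Gapdh with Iffo1 and Tpi1 with Spsb2. For Pfkp, Pfkm, Pfkfb1 and Pfkfb2 the neighbour held more reads (31222, 12558, 4794 and 1970) than the member (20146, 6197, 617 and 644) over the 6 libraries.

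The Pfkfb enzymes set the level of fructose 2,6-bisphosphate, the activator of phosphofructokinase. Pfkfb3, the form with high kinase activity, held 64.5% to 77.6% of their summed FPKM. It was measured at 47.24, 69.89 and 56.51 CPM in shVec and 44.17, 42.83 and 65.68 CPM in shNgb. Its log2 fold change was -0.18 (SE 0.20), with shNgb 3 inside the shVec range, and ran from -0.41 without shNgb 3 to -0.026 without shVec 2. Pfkfb2 was measured at 5.83, 4.79 and 4.79 CPM in shVec and 4.63, 4.61 and 4.56 CPM in shNgb, and Pfkfb4 at 5.19, 4.99 and 5.45 against 4.15, 4.98 and 4.14 CPM. Neither gene's groups overlapped, those of Pfkfb4 by a narrow margin, but at these levels the log2 fold changes of -0.16 (SE 0.20) and -0.24 (SE 0.20) were about as large as their errors. Pfkfb1 averaged 4.56 ± 1.57 and 4.66 ± 1.07 CPM.

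Aldoa, the aldolase that splits fructose 1,6-bisphosphate (chr7:126795234-126800751), was measured at 761.06, 773.90 and 737.87 CPM in shVec and 716.81, 609.03 and 592.87 CPM in shNgb. The groups did not overlap, and the gap between shNgb 1 and the lowest shVec tumour was small beside that of the other shNgb tumours. Its log2 fold change in edgeR was -0.24 (SE 0.09, unadjusted p = 0.0185). The other row named Aldoa, a gene ID just upstream (chr7:126800790-126809108), averaged 2.22 ± 1.09 and 1.97 ± 0.35 CPM. Aldoc, the brain form, averaged 12.6 ± 2.74 and 9.71 ± 2.79 CPM with a log2 fold change of -0.38 (SE 0.25). Tpi1, which interconverts the triose phosphates, averaged 679 ± 43.3 and 608 ± 61.4 CPM with a log2 fold change of -0.16 (SE 0.09).

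Gapdh, which oxidises glyceraldehyde 3-phosphate and often serves as a reference gene (chr6:125161715-125166467, minus strand), had few reads in its own row. That row ranked between 2041 and 8917 among all genes by FPKM, far below its neighbours in the pathway. The processed pseudogene Gm13394 (chr2:28933610-28934609, minus strand) held 81904 reads, while the Gapdh row held 4995 over the 6 libraries. In the GENCODE M21 transcripts, Gm13394 matches positions 241 to 1240 of the 1420 bases of the Gapdh transcript, counted from 1 at its 5′ end, with 1 difference, A586C. The match covers the coding part, which runs from 241 to 1242. The 61 bases around the difference are shown 5′ to 3′ because this letter alone tells the 2 apart within the match, with the differing base in capitals.
Gapdh: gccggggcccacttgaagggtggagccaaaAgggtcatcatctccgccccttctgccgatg
Gm13394: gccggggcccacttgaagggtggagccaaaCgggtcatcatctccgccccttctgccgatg
All 70 copies with reads together held 94.4% of the reads of Gapdh and its copies. Which gene the reads on Gm13394 came from was not tested.

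The Gapdh row was measured at 31.89, 125.62 and 23.62 CPM in shVec and 22.76, 15.51 and 18.74 CPM in shNgb. The tumour shVec 2 stood apart from the other 5. The log2 fold change was -1.67 (SE 0.66, unadjusted p = 0.0440 in edgeR), and without shVec 2 it was -0.55. The Gm13394 row was measured at 680.84, 665.61 and 643.34 CPM in shVec and 692.32, 506.67 and 553.33 CPM in shNgb. Gapdh summed with its copies was measured at 736.1, 820.3 and 686.9 CPM in shVec and 735.7, 540.3 and 591.9 CPM in shNgb. With the reads summed, the groups overlapped and the log2 fold change was -0.26 (SE 0.12, 95% interval -0.54 to 0.01, unadjusted p = 0.0565 in edgeR), close to the values of Aldoa and Pgk1. The summed CPM of 12 skeletal muscle markers was also highest in shVec 2, at 29.7, against 8.43 and 10.95 in the other shVec tumours and 8.10 to 10.04 in shNgb; its part in the Gapdh row was not tested.

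**Figure D4:**
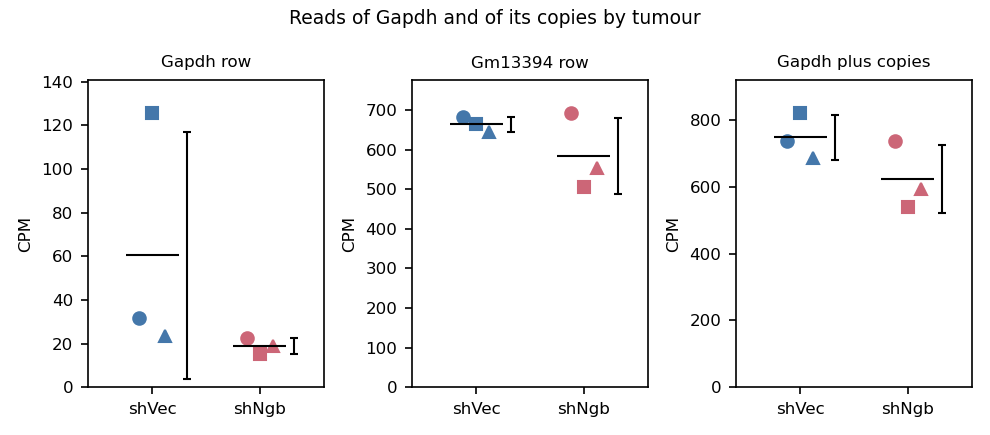
CPM of the Gapdh row, of the pseudogene Gm13394 and of Gapdh summed with its copies, with 1 point per tumour (circle, square and triangle for tumours 1, 2 and 3), the group mean as a line and the SD as a bar beside it; each panel has its own axis starting at 0. The Gapdh row stands at 125.62 CPM in shVec 2 and between 15.51 and 31.89 CPM in the other 5 tumours, whereas the sum lies between 540.3 and 820.3 CPM.

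The kinase Pgk1, which yields the first ATP of the lower steps (chrX:106187100-106203699), was measured at 1377.85, 1483.00 and 1391.70 CPM in shVec and 1345.72, 1135.00 and 1067.79 CPM in shNgb. The groups did not overlap, with shNgb 1 close under the shVec range. The log2 fold change was -0.26 (SE 0.09, unadjusted p = 0.0208 in edgeR). Pgam1, the phosphoglycerate mutase, was measured at 605.85, 680.88 and 616.35 CPM in shVec and 679.88, 475.61 and 560.87 CPM in shNgb. Its shNgb 1 value reached the top of the shVec range (log2 fold change -0.15, SE 0.12; -0.29 without shNgb 1 and -0.032 without shNgb 2). Bpgm, which makes 2,3-bisphosphoglycerate and is best known from red cells, averaged 29.7 ± 0.93 and 31.6 ± 7.92 CPM.

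Eno1, the main enolase (chr4:150236721-150248879), was measured at 1891.54, 1859.27 and 1907.92 CPM in shVec and 1747.43, 1484.40 and 1651.55 CPM in shNgb. The shVec tumours lay close together and the groups did not overlap. In edgeR the log2 fold change was -0.21 (SE 0.08, unadjusted p = 0.0208). Copies of Eno1 held 17.5% of the summed reads, and with them the log2 fold change was -0.22 (SE 0.08). Eno2, the neuronal enolase, was measured at 29.02, 28.07 and 23.83 CPM in shVec and 30.91, 17.69 and 7.17 CPM in shNgb, a wide spread within shNgb (log2 fold change -0.54, SE 0.47). Eno3, the muscle form, averaged 18.0 ± 3.60 and 18.05 ± 2.92 CPM.

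Pkm, the pyruvate kinase, was measured at 3131.17, 3048.60 and 3019.46 CPM in shVec and 3067.26, 2637.62 and 2548.42 CPM in shNgb, with a log2 fold change of -0.16 (SE 0.08, unadjusted p = 0.0883 in edgeR). The tumour shNgb 1 lay inside the shVec range. Ldha, which reduces pyruvate to lactate (chr7:46841475-46855627), was measured at 1529.05, 1582.02 and 1603.02 CPM in shVec and 1486.95, 1302.48 and 1241.66 CPM in shNgb. The groups did not overlap, and the log2 fold change was -0.23 (SE 0.08, unadjusted p = 0.0212 in edgeR). Over the 27 rows of uptake and glycolysis, 23 had a negative log2 fold change and the median was -0.18; 7 lay lower at an unadjusted p under 0.05 and 8 lay lower without overlap, beside 1.22% and 3.43% of all genes.

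Pyruvate dehydrogenase oxidises pyruvate within the mitochondria and is switched off by the Pdk kinases. Pdk1, the kinase of highest FPKM (chr2:71873224-71903858), was measured at 166.10, 149.76 and 163.37 CPM in shVec and 147.79, 137.94 and 107.42 CPM in shNgb. The groups did not overlap, shNgb 3 was the lowest, and the log2 fold change was -0.29 (SE 0.12, unadjusted p = 0.0379 in edgeR). Pdk3 was measured at 37.95, 38.30 and 35.94 CPM in shVec and 35.59, 34.68 and 34.57 CPM in shNgb, without overlap but with a log2 fold change of -0.10 (SE 0.08). Pdk2 averaged 1.16 ± 0.75 and 1.15 ± 0.40 CPM. Pdk4 had 1, 22 and 1 reads in shVec and 4, 9 and 3 in shNgb, the most in shVec 2, which also had the highest muscle marker sum. The genes of the enzyme's E1 subunits stood level: Pdha1 was measured at 223.00, 180.40 and 183.32 CPM in shVec and 205.94, 200.84 and 194.41 CPM in shNgb (log2 fold change 0.03, 95% interval -0.18 to 0.25). Pdhb averaged 145 ± 9.81 and 144 ± 9.63 CPM (log2 fold change -0.01, 95% interval -0.19 to 0.18).

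In the pentose phosphate pathway, 3 of 7 genes had a negative and 4 a positive log2 fold change, with a median of 0.02. In edgeR 0 lay at an unadjusted p under 0.05 and 0 were free of overlap, beside 2.58% and 7.10% of all genes. With such shares, 7 genes are too few for these counts to set the pathway apart. Pgls, the lactonase of the oxidative branch, was measured at 138.72, 118.22 and 136.03 CPM in shVec and 117.94, 130.91 and 114.66 CPM in shNgb (log2 fold change -0.11, 95% interval -0.32 to 0.09). G6pdx, the entry enzyme that makes NADPH, averaged 62.4 ± 9.25 and 65.7 ± 11.6 CPM (0.08, 95% interval -0.27 to 0.42 on the log2 scale), and Pgd, the other NADPH-making enzyme, 145 ± 10.1 and 157 ± 28.3 CPM (0.11, 95% interval -0.18 to 0.41). Both were highest in shNgb 3, at 76.83 CPM for G6pdx and 183.83 CPM for Pgd. Pgk1 and Ldha were lowest in that tumour, while Hk2, Gapdh, Pgam1 and Eno1 were lowest in shNgb 2. In the non-oxidative branch, which links pentoses to glycolysis, the transketolase Tkt was measured at 290.79, 251.30 and 279.85 CPM in shVec and 267.18, 278.97 and 246.10 CPM in shNgb (log2 fold change -0.05, 95% interval -0.24 to 0.13). Taldo1, the transaldolase, averaged 70.2 ± 3.60 and 73.0 ± 4.35 CPM (0.06, 95% interval -0.13 to 0.24). The isomerase Rpia averaged 25.02 ± 2.15 and 24.9 ± 3.75 CPM, and the epimerase Rpe 46.4 ± 5.95 and 47.1 ± 1.47 CPM. The difference between the glycolytic and the pentose phosphate genes was not itself tested.

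Among neighbouring genes of glucose metabolism, 0 were called by edgeR. Of 11 tested glycogen genes, 7 had a negative log2 fold change (median -0.06). At an unadjusted p under 0.05 in edgeR 2 lay lower in shNgb, beside 1.22% of all genes. These were Gys1, the glycogen synthase of most tissues, at 47.5 ± 1.67 and 36.7 ± 6.97 CPM, and the row named Pgm1, at 88.2 ± 4.92 and 74.0 ± 10.7 CPM. Of 4 tested lactate transporter genes 3 were negative, and Slc16a3, the exporter MCT4, stood at 914 ± 61.5 and 780 ± 91.9 CPM (log2 fold change -0.23, unadjusted p = 0.0454 in edgeR). Of 9 genes of pyruvate import and oxidation outside the members 6 were negative with a median of -0.03, and of 9 other genes of glycolysis and gluconeogenesis 7 were negative with a median of -0.08. The 6 tested other pentose and ribose genes were negative with a median of -0.06, and of 4 tested other sugar transporters 1 was negative. Of 6 tested regulators 3 were negative: Hif1a stood at 315 ± 2.68 and 297 ± 37.5 CPM and Myc at 318 ± 89.9 and 230 ± 70.1 CPM. Txnip, a glucose-induced brake on uptake, stood at 5.34 ± 0.84 and 7.91 ± 1.72 CPM (log2 fold change 0.57, unadjusted p = 0.0315 in edgeR).

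By the medians over each list, genes induced by low oxygen but outside glycolysis showed the same order of tumours as the 27 glycolytic rows. These 13 genes and the members were chosen with earlier results of these data known, so the match is not independent support. Log2 fold changes were below 0 for the 13 tested genes and their median was -0.60; 3 lay lower at an unadjusted p under 0.05 in edgeR and 7 lay lower without overlap, beside 1.22% and 3.43% of all genes. The median of their centred log2 CPM was 0.28, 0.30 and 0.22 in shVec 1 to 3 and 0.17, -0.26 and -0.91 in shNgb 1 to 3. The same median over the 27 glycolytic rows was 0.11, 0.15 and 0.07, then 0.04, -0.12 and -0.20, and over the 7 pentose phosphate genes 0.09, -0.02 and -0.11, then 0.05, 0.03 and 0.11. By these medians shNgb 3 was the lowest tumour for the glycolytic and the hypoxia genes and the highest for the pentose phosphate genes. Gene by gene, G6pdx, Pgd, Taldo1 and Rpia were highest in shNgb 3, while Tkt and Pgls were lowest there and Rpe was neither. Macrophage markers, with 10 of 10 tested, had medians of -0.82, 0.15 and -0.07, then -0.39, 0.49 and 0.77. The 7 tested T and NK cell markers had medians of -0.76, 0.51 and -1.09, then -0.70, 0.80 and 1.71, and the summed CPM of all 8 ranged from 3.31 to 15.3 in shVec and from 3.57 to 32.6 in shNgb. Both were highest in shNgb 3. Of the 7 tested fibroblast markers 6 had a positive log2 fold change (median 0.41), and 3 lay higher at an unadjusted p under 0.05 in edgeR, beside 1.35% of all genes. Their centred medians, -0.04, -0.20 and -0.62 for shVec and 0.63, 0.22 and 0.13 for shNgb, did not overlap, while the summed CPM of all 8 ranged from 1714 to 2076 in shVec and from 1181 to 2489 in shNgb. The part of these 3 marker lists in the levels of the glucose genes was not tested. The endothelial markers, with 6 of 6 tested, summed to 54.1 to 57.4 CPM in shVec and 47.6 to 62.0 CPM in shNgb. Red cell markers summed to 19.9 to 37.99 and 26.5 to 53.0 CPM. Of 8 neutrophil markers 2 were tested, Ly6g had 0 reads, and the sum was 2.14 to 3.78 CPM in shVec and 2.72 to 11.8 CPM in shNgb.

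**Figure D5:**
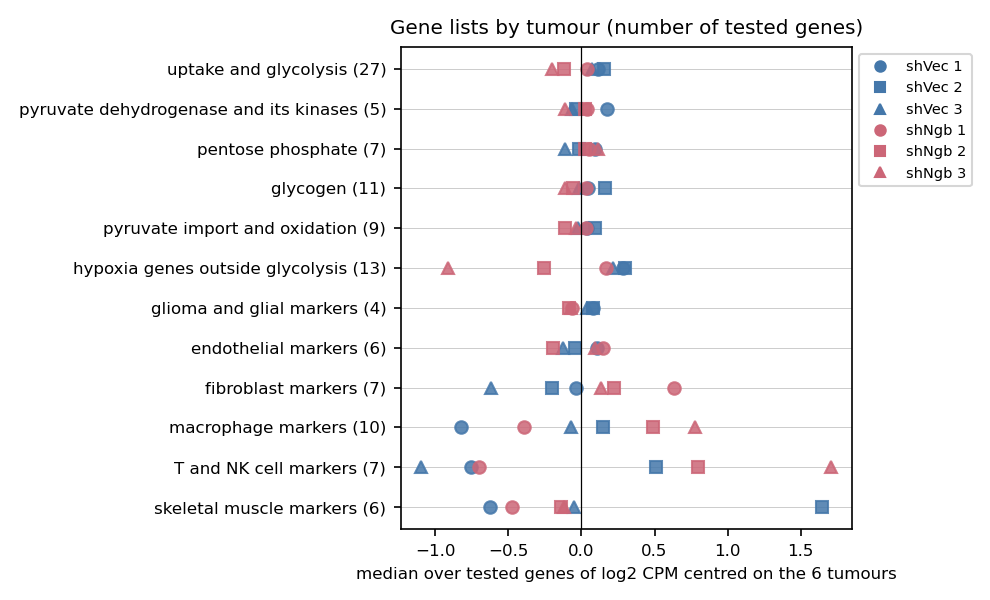
Median over the tested genes of log2 CPM centred on the 6 tumours, for the glucose gene groups, related lists and cell type markers, with 1 point per tumour and the number of tested genes in brackets. For glycolysis and for the hypoxia genes shNgb 3 is the lowest point, at -0.20 and -0.91, and for the pentose phosphate genes it is the highest, at 0.11.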

How the data were processed

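Total RNA of 6 tumours was sequenced with the Illumina TruSeq kit, per the labels' protocols. The submitters' processing notes list Bowtie 0.12.2, mm8 and mm10 without saying how each was used, and no source used here names the counting tool or how it placed reads with several matches. The authors deposited whole-number read counts per Ensembl gene ID, used for the tests, and FPKM values per sample, used to compare genes. For 11113 genes (over 50 reads in each library) the deposited FPKM equalled the count times a gene and a library factor, within a relative deviation of 5.3e-09. Symbols came from GENCODE M21 (GRCm38), which named 54495 of 54532 IDs.

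The tests used edgeR 4.0.16 (R 4.3.3): the default filter kept 15203 genes, libraries were scaled by TMM, and groups of 3 were compared by the robust quasi-likelihood test with Benjamini-Hochberg adjustment over all tested genes at 0.05. CPM are TMM-scaled. Centred values are log2 CPM with a prior count of 2. Copies were sought with blastn 2.17.0 at 95% identity over 250 bases, with the longest protein-coding transcript of each gene as the query. The alternatives were 2 other scalings (upper quartile, RLE), no filter or a strict one, limma-voom (limma 3.58.1), DESeq2 1.42.0, a block for the replicate number, a threshold of 0.1, leaving out each tumour and adding the reads of copies. The steps were tested on simulated data. Values in every tumour are given for genes at an unadjusted p under 0.05, genes whose groups do not overlap and the isozyme of highest FPKM at each step; of other lists up to 4 genes of smallest p were eligible to be named. The members and lists were chosen with earlier results of these data known.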

Additional observations from a re-analysis of the deposited data

How the results depend on the processing

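The number of all genes called was 0 in edgeR, 3 without the filter (Klf4, Ppp1r15a and Nlrp1c-ps), 5 with DESeq2 (Hmgn2, Rpl17-ps10, Ppp1r15a, Klf4 and Col1a1), 1 with the replicate block (Rpl17-ps10), and 0 to 0 when each tumour was left out. These genes are named because they were called, and 0 glucose genes were called under any of these settings. The glucose genes at an unadjusted p under 0.05 numbered 8, and 3 to 13 when each tumour was left out. The share of all genes was 2.58%, and 1.37% to 4.94%. Of the 8, between 2 and 7 stayed under the threshold when a tumour was left out. Glucose genes without overlap numbered 10, and 13 to 18, beside 7.10%, and 12.2% to 19.5%, of all genes. The 10 lay lower in shNgb, but 2 of 13 lay higher without shNgb 2 and 1 of 15 without shVec 1. The median log2 fold change of the glucose genes, -0.15, ranged from -0.17 to -0.13 over the alternatives. Of 280 values of single genes under an alternative, 278 kept their direction. Their adjusted p stayed at 0.245 or above, so that threshold says nothing of their stability. At an unadjusted p of 0.05, 35 of the 280 values, from 12 genes, changed side, 27 to above it and 8 to below it. The log2 fold change of Pdha1, 0.03, was -0.020 without shVec 2 and -0.012 without shVec 3, and ranged from -0.020 to 0.14 as each tumour was left out. For Slc2a1 that range was -0.87 to -0.38, for Gapdh -2.06 to -0.55, for Pfkfb3 -0.41 to -0.026, for Pgam1 -0.29 to -0.032 and for Pdk1 -0.38 to -0.16. With the reads of copies added, Gapdh stood at -0.26. Tumours of the same replicate number correlated in their deviations at 0.26 for number 1, -0.14 for number 2 and -0.10 for number 3 (15203 genes), so the numbers were not taken to pair the tumours. With the replicate block 8 glucose genes lay at an unadjusted p under 0.05, beside 2.80% of all genes. Of these, 7 were among the 8 without the block. Gapdh left and Slc2a1 entered, as with limma-voom. Standard errors of the glucose genes ran from 0.08 to 0.66 with a median of 0.12, and with 3 tumours in each group differences within the intervals given were not detectable.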
